A study of Rattus norvegicus with 4 samples.

Results

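The comparison of docosahexaenoic acid (DHA) with control medium in rat cardiomyocytes rests on 2 of the 4 arrays of the study, those with DHA in their titles. Ventricles of newborn Wistar rats supplied primary cultures, which were kept in HAM F10 medium that held fetal calf serum and horse serum at 10% each. The supplemented cells received 60 µM DHA in that medium and the control cells received none; the unit is that of the series' design text, since the sign is garbled in the sample descriptions. On array 1 cRNA of DHA cells was in Cy5 and that of control cells in Cy3, and on array 2 the dyes were exchanged. Medium was renewed every 48 h until the cells were confluent. No label states if both arrays carry the same RNA extracts, or how many hearts or dishes a culture came from. The pair is therefore treated as 1 RNA sample against 1 control RNA, measured with both labellings, and no p-value can be given for the treatment. The arrays report ratios and no levels, so the labelled cell type could not be checked by whether its markers are present.

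DHA is a long-chain omega-3 fatty acid of fish oil that heart muscle takes up, builds into its membranes and can burn. Fatty acids and their derivatives bind the PPAR family of nuclear receptors, which switch on genes of fatty acid uptake, of the carnitine shuttle into mitochondria, of oxidation and of lipid droplets. Polyunsaturated fatty acids are also known to lower the activity of SREBP-1, the factor that drives genes of fatty acid synthesis in liver, and to give rise to lipid mediators that dampen inflammation. Primary ventricular cultures hold fibroblasts, macrophages and vascular cells beside cardiomyocytes. In a bulk sample of this kind fewer cells of a type and less RNA per cell cannot be told apart.

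Values are log2 ratios of each array after its median was set to 0. Where a gene is given with a pair of values, the first is array 1 and the second array 2. A mean of both is followed by the distance of either array from it, after a ± sign, and this labelling error leaves out the spread between cultures. Of 22575 features 20500 were measured, and 12750 of these belong to 9653 named genes, whose probes were averaged. The ratios were read as DHA over control on both arrays. This direction is likely rather than stated, and every direction given here would turn if the table ran control over DHA. Its basis is that both titles name the treated cells. An effect of dye or scanner keeps its sign between swapped arrays where ratios are Cy5 over Cy3 and changes it where they compare the cells, in either order, and 26 of the 30 features that share the value -0.44 on array 1 as deposited, within a tolerance of 0.0002, lay above 0 on array 2, with a median of 1.44. Of those 30 features 12 are for ribosomal protein genes. Whether their shared value comes from dye or scanner was not tested, and the set was chosen after seeing the data. Genes of fatty acid oxidation had also been used when the reading was first chosen, so their direction is no independent evidence for it. Read instead as Cy5 over Cy3, 0 genes would be called higher at 1.5-fold and 5 lower, none of them among the genes called here. The log base is not stated either. The highest value on array 2, 4.22, would be an 18.6-fold ratio in base 2 and a 16491-fold ratio in base 10, and base 2 was used.

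Array 1 has a fault of position, so features were marked by it. The features were placed on an inferred grid of 215 columns, and those in the first 66 columns, 6278 of the measured features or 30.6%, were marked. On array 1 the share of values under -1 was 17.1% in the marked columns and 0.0563% elsewhere, and the interquartile range was 0.69 against 0.21. Array 2 showed no such tail, with 0 marked values under -1 and interquartile ranges of 0.19 and 0.18, although its median was -0.076 in the marked columns and 0.027 outside. At the border itself the tail had faded: 0 of 566 features in the last 6 marked columns and 2 of 585 in the first 6 unmarked columns lay under -1 on array 1. The marked columns reach 3557 genes, or 36.8%, and the other 6096 genes carry the description that follows. Smaller shifts with position remain in the unmarked columns. Their column medians ran from -0.13 to 0.11 on array 1 and from -0.051 to 0.15 on array 2. Many list medians below are no larger than these shifts.

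**Figure D1:**
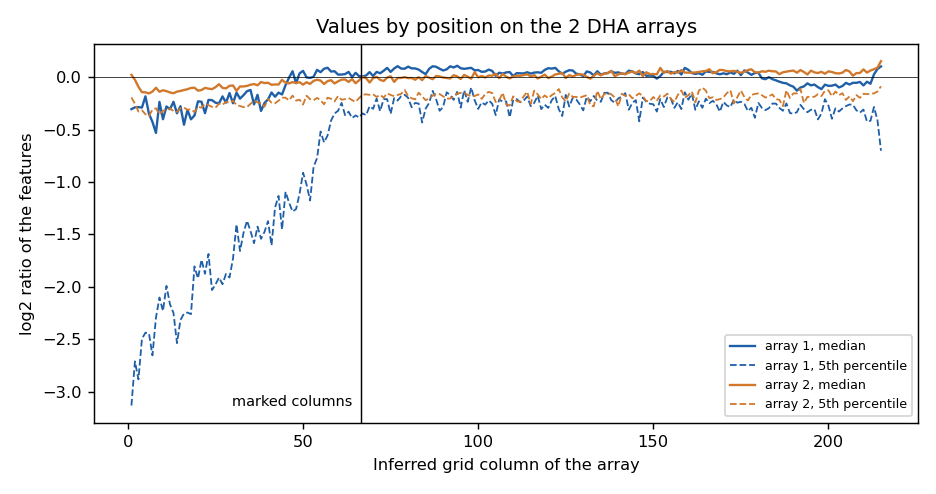
Median and 5th percentile of the log2 ratios in each of 215 inferred grid columns, for array 1 (blue) and array 2 (orange). To the left of the vertical line, in the 66 marked columns, the 5th percentile of array 1 is below -1 in most columns. It returns towards 0 near the line. That of array 2 is also lower in many marked columns than in most others, but by far less, and goes no lower than -0.37.

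Most ratios were close to 0. Of the 6096 unmarked genes 5628 (92.3%) had a mean within 0.2 of 0, and the first and the 99th percentile of the means were -0.33 and 0.40. Their median labelling error was 0.077, and the median of all their means was 0.028 because the array centre includes the marked features. Across these features the arrays ran slightly against each other, with Pearson's r of -0.16 and Spearman's rho of -0.25 over 14222 features, and 3530 of the genes (57.9%) lay on opposite sides of 0. These features share 2 hybridisations and are no independent replicates. Above 0 on both arrays lay 1696 unmarked genes (27.8%), and 870 (14.3%) lay below 0 on both. Over all 9653 genes the shares were 21.3% and 24.4%.

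Against this narrow range 4 genes stood at least 1.5-fold above control on both arrays and 4 at least 1.5-fold below. That is 0.0414% of all genes in each direction, or 0.0656% of the unmarked ones, and none of the 8 has a marked probe. The higher genes were Cpt1b, Star, Hilpda and Asip, and the lower ones Mmp12, Ceacam4, Gpc3 and Grem1. At 2-fold on both arrays there was no gene in either direction. On opposite sides of the arrays at 1.5-fold lay 5 genes, each with a marked probe. Among unmarked genes 0 did so at 1.5-fold. That count could not include 19 unmarked genes with the repeated value of array 1, which is -0.43 after centring and short of 1.5-fold.

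**Figure D2:**
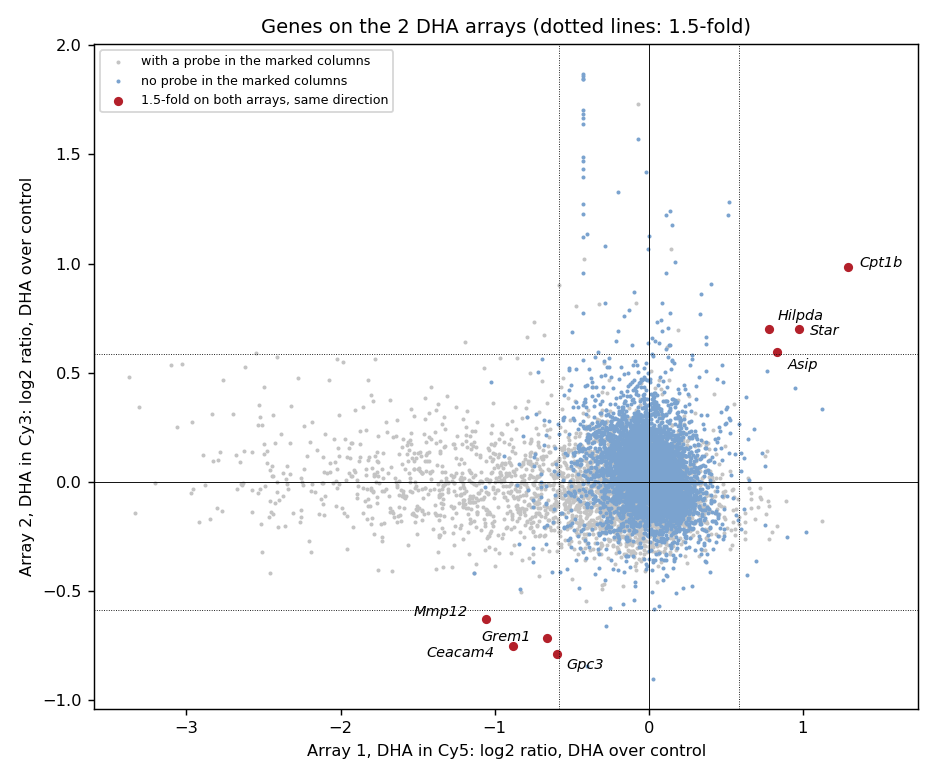
Log2 ratio of DHA over control on array 1 (horizontal) against array 2 (vertical) for each gene, in grey where it has a probe in the marked columns and in blue where it has none; dotted lines stand at 1.5-fold. The 4 genes called higher sit in the upper right corner and the 4 called lower in the lower left, and the vertical row of points at -0.43 on array 1 holds features with one repeated value.

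At 1.3-fold on both arrays 14 genes (0.145%) were higher and 23 (0.238%) lower. The lower set is uneven, because 12 of its genes have a probe in the marked columns, with array 1 between -2.46 and -0.41 and array 2 between -0.54 and -0.38. Of these Tyrobp, Dusp6, Nr4a3 and Scd2 are described with their groups, and the others are Lxn, C1qtnf2, Cyp7b1, P2ry6, Slpi, Csgalnact1, Cyp2s1 and Gmnn. Of the higher set only Cdc27, a subunit of the anaphase-promoting complex, is marked, at 0.42 and 0.40. Without marked genes 13 genes (0.213% of 6096) were higher and 11 (0.180%) lower. Of the 13, 5 belong to the lists of fatty acid uptake and oxidation, which hold 27 of the 6096 unmarked genes, or 0.443%. The lists were drawn up with earlier results of these data known, and oxidation genes were used when the reading was chosen. That count is therefore no independent support. On opposite sides at this threshold lay 35 unmarked genes, and 33 of them were low on array 1 and high on array 2. Without the features that share the repeated value on array 1 these counts were 17 and 15, beside 13 genes higher and 11 lower.

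**Figure D3:**
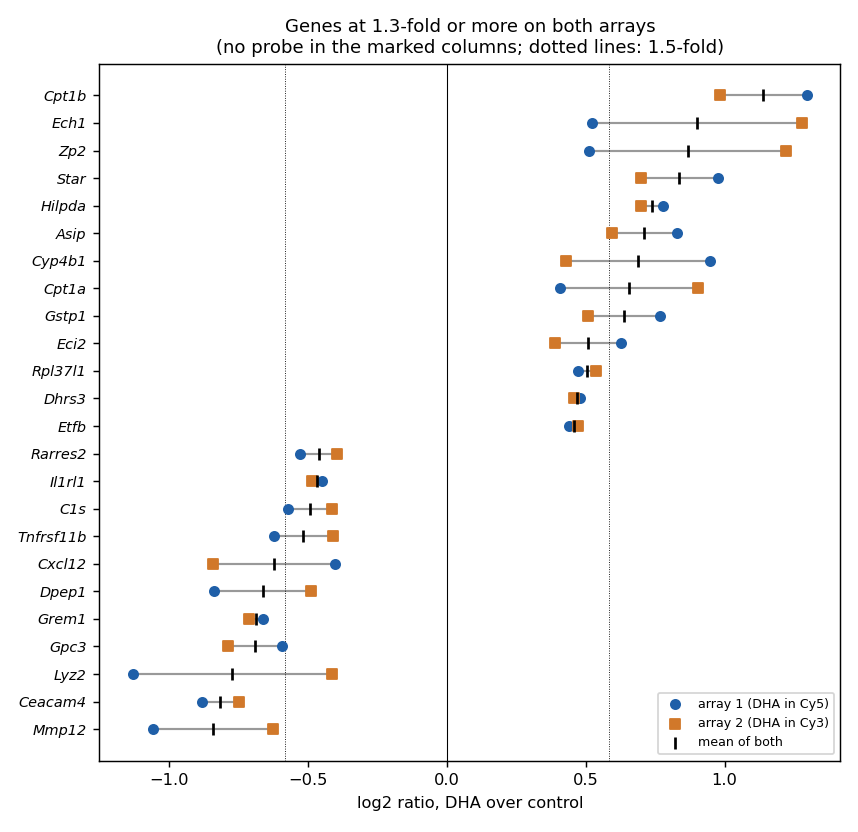
Log2 ratios on array 1 (circles) and array 2 (squares), joined by a line with the mean as a tick, for the 13 genes higher and 11 genes lower at 1.3-fold or more on both arrays, none with a probe in the marked columns. Dotted lines stand at 1.5-fold. Ech1, Zp2, Lyz2 and Cyp4b1 have widely spaced arrays, while Hilpda, Dhrs3, Etfb, Rpl37l1, Grem1 and Il1rl1 have arrays almost on top of each other.

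RefSeq promoter entries on the GRCr8 build, from 250 bases before to 50 after a gene's start, were found for 16 of these 24 genes, 7 higher and 9 lower. Cpt1b, Star, Asip, Ech1, Zp2, Rpl37l1, C1s and Tnfrsf11b had no entry. Promoters were searched on both strands for AGGTCA, the core that PPAR and related nuclear receptors bind, for 2 such cores as a direct repeat with 1 base between, and for ACGTG, the core of sites of the hypoxia-inducible factors. AGGTCA occurred in 1 of the 7 higher and 3 of the 9 lower genes, against 15.7% of 27457 promoters with an entry. The direct repeat occurred in 0 of the 16 and in 0.0583% of all, and ACGTG in 1 of 7, 2 of 9 and 19.7% of all. Matches are letters in a short window and not shown to be sites, and the windows leave out more distant elements. Shown are the promoters of Hilpda, the only one of the 4 higher genes with an entry, of Eci2, the only higher gene with AGGTCA, and of Grem1, the gene with the closest arrays among the 4 lower at 1.5-fold, with matches of AGGTCA and ACGTG on either strand in capitals. They lie at chr4:58836213-58836512 on the plus strand, chr17:30075516-30075815 on the plus strand and chr3:120978270-120978569 on the minus strand.
Hilpda: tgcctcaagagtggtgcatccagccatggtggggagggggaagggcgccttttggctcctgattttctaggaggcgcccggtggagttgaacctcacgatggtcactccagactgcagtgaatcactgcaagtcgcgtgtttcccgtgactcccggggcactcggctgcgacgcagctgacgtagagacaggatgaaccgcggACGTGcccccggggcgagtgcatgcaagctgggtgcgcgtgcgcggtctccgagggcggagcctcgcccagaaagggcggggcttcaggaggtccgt
Eci2: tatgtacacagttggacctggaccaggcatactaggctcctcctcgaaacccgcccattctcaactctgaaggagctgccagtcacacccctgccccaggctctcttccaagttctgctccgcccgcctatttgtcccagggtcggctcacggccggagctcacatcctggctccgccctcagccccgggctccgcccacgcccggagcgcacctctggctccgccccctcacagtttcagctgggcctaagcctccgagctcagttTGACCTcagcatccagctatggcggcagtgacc
Grem1: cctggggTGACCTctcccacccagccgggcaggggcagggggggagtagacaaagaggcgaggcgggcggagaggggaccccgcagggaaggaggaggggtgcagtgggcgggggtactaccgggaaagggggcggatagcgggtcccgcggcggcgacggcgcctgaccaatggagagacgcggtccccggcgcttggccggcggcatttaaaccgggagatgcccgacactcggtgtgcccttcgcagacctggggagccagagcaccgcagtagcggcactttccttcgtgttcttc
Counted from the gene's start, with negative numbers before it, the ACGTG of Hilpda begins at -47, the AGGTCA match of Eci2 at 18 and that of Grem1 at -243. In Eci2 and Grem1 the match is on the opposite strand, so the capitals read TGACCT.

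Entry of fatty acids into mitochondria showed the largest value among named genes. Cpt1b, the muscle form of carnitine palmitoyltransferase 1 that makes long-chain acyl groups ready to cross the mitochondrial membrane, stood at 1.296 and 0.983, a mean of 1.14 ± 0.16 or 2.20-fold. It was the highest named gene on array 1 among those without a marked probe. Cpt1a, the liver form that newborn heart also uses, stood at 0.41 and 0.90, so it passed 1.5-fold on array 2 alone. The later steps of the shuttle were near 0: Slc25a20, the carrier that swaps acylcarnitine for carnitine, at -0.017 and 0.16, and Cpt2, which releases the acyl group inside, at -0.014 and 0.088. Among genes of uptake and activation, the fatty acid translocase Cd36 was at 0.12 ± 0.015, the long-chain acyl-CoA synthetase Acsl1 at 0.15 ± 0.060 and lipoprotein lipase, Lpl, at 0.026 ± 0.0084. Fabp4, an adipose-type fatty acid binding protein, was at 0.31 and 0.026. Of the 15 unmarked genes of this list 9 lay above 0 on both arrays (60.0%, against 27.8% of all unmarked genes) and 0 below on both, with a median of 0.081. The 5 marked members are left out of these counts, among them Fabp3, the cardiac form of fatty acid binding protein.

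The oxidation enzymes had the highest median of the 30 lists. Of 12 unmarked members 11 lay above 0 on both arrays (91.7%, against 27.8% of all unmarked genes). Their median was 0.37, at 0.32 on array 1 and 0.41 on array 2, against 0.028 for all unmarked genes. This rests on the reading, since as Cy5 over Cy3 the median would be -0.056. Oxidation genes were used when that reading was chosen, and the list was drawn up with earlier results known. Its rank and side are therefore no independent evidence. Ech1, which repositions double bonds of unsaturated fatty acids, stood at 0.52 and 1.28, a mean of 1.87-fold. It met 1.3-fold on both arrays and 1.5-fold on array 2 alone. Decr1, the mitochondrial dienoyl-CoA reductase, had the same shape, at 0.33 and 0.77. Eci2, an enoyl-CoA isomerase, was higher on array 1 at 0.63 and 0.39. These 3 enzymes are the auxiliary steps that an unsaturated chain needs beside the core spiral.

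Electron transfer from that spiral was covered by 3 genes, all above 0 on both arrays. Etfb, the beta subunit of the electron transfer flavoprotein, stood at 0.44 and 0.47 and was called at 1.3-fold. Its partner Etfa was lower, at 0.30 and 0.11, and Etfdh, which passes the electrons on to ubiquinone, was at 0.46 and 0.25. Within the core spiral the very long-chain dehydrogenase Acadvl was at 0.50 and 0.27. The 2 subunits of the trifunctional protein tracked each other, Hadha at 0.13 and 0.63 and Hadhb at 0.15 and 0.52. Acadm, the medium-chain dehydrogenase, was the exception of the list at -0.10 and 0.13, on opposite sides of 0. Among thioesterases Acot1 was at 0.19 and 0.19 and Acot7 at 0.23 and 0.43.

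A marked probe is found in 12 of the 24 measured genes of this list, and those members are mixed. Over all 24 genes 12 lay above 0 on both arrays, against 21.3% of all genes, 3 below on both and the median was 0.20. Acadl, the long-chain dehydrogenase, stood at -0.084 and 0.82, and Acaa2, the mitochondrial thiolase of the last step, at -0.58 and 0.90, so both were low on the faulty array and high on the other. Hadh, a dehydrogenase of short chains, was above 0 on both at 0.38 and 0.18, and Acaa1a, the peroxisomal thiolase, below on both at -2.45 and -0.14.

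**Figure D4:**
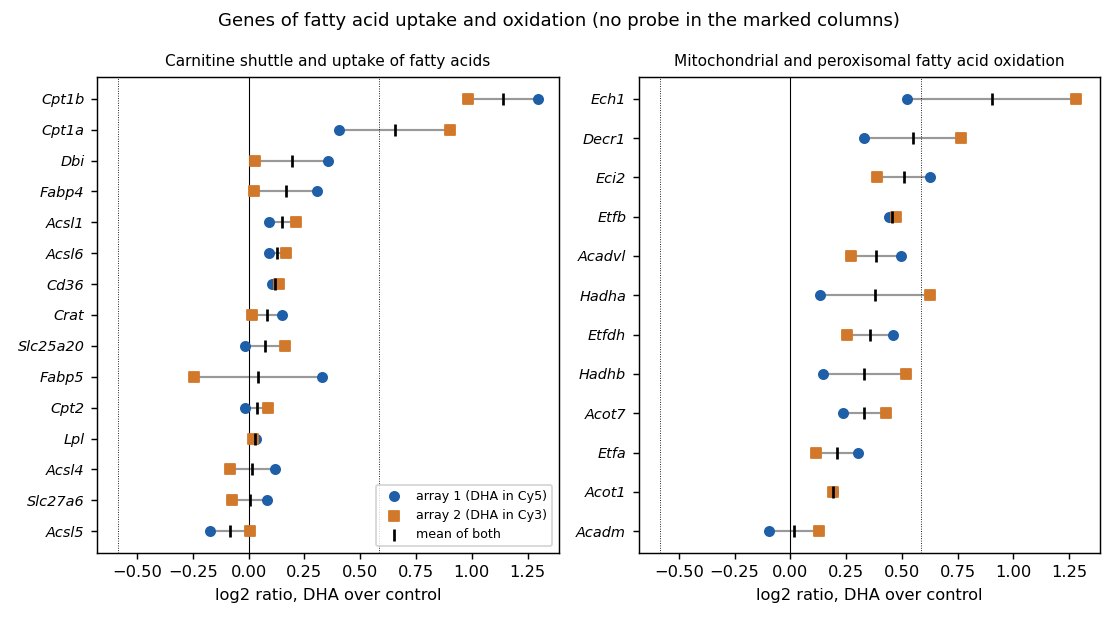
Log2 ratios on array 1 (circles) and array 2 (squares), with the mean as a tick, for unmarked genes of fatty acid uptake and the carnitine shuttle (left, 15 genes) and of fatty acid oxidation (right, 12 genes); dotted lines stand at 1.5-fold. Cpt1b and Cpt1a stand clear of the rest on the left, whereas on the right all genes but Acadm lie above 0 on both arrays.

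Among lipid droplet genes a few coat and regulatory proteins stood above control, while others of these kinds and several enzymes were near 0 or below. Hilpda, which sits on lipid droplets and holds back the lipase that empties them, stood at 0.78 and 0.70, a mean of 0.74 ± 0.040 or 1.67-fold. Plin2, the coat protein of droplets in cells other than fat cells, stood at 0.37 and 0.63 over 2 probes, which gave 0.53 and 0.63 on arrays 1 and 2 for one and 0.21 and 0.63 for the other. Cidea, a droplet fusion protein, was at 0.31 and 0.38. G0s2, another brake on that lipase, was split by array at 0.89 and -0.25. The related genes Cidec, at -0.040 and 0.043, and Cideb, at 0.11 and -0.13, were also split. Plin3, another coat protein, was the lowest unmarked member at -0.28 and -0.028. The synthesis enzymes Gpam at 0.034 ± 0.084 and Dgat2 at -0.027 ± 0.036 were near 0, as were the hormone-sensitive lipase Lipe at 0.060 ± 0.022 and the cardiac coat protein Plin5 at 0.078 ± 0.16. In this list 5 of 13 unmarked genes (38.5%, against 27.8% of all unmarked genes) lay above 0 on both arrays and 1 below.

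Genes that steer the choice of fuel had smaller values. Ucp3, a mitochondrial carrier that rises with fatty acid supply in muscle, stood at 0.37 and 0.51, 1.36-fold on average and under 1.3-fold on array 1. Pdk4, the kinase that shuts pyruvate out of the citrate cycle, gave 0.11 and 0.12, a narrow value of 0.11 ± 0.0036. Mlycd, which removes the malonyl-CoA that inhibits carnitine palmitoyltransferase 1, was at 0.13 and 0.22. Other members were not higher: Vnn1, the lowest unmarked one, was at -0.25 and -0.19. Pdk1 was split at 0.29 and -0.21, and Acacb at 0.24 and -0.043. Of the 9 unmarked genes of this fuel list 5 lay above 0 on both arrays (55.6%, against 27.8% of all unmarked genes). Below on both lay 1 (11.1%, against 14.3%), and the median was 0.10. The receptors themselves stayed close to control: Ppara was at -0.090 ± 0.25 with its arrays on opposite sides, Ppard at -0.075 ± 0.029 and Pparg at 0.18 ± 0.041. Nrip1, a co-repressor of these receptors, was at 0.21 and 0.21, although it has a marked probe. Of 8 unmarked receptors and co-regulators 3 lay above 0 on both arrays and 2 below.

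Fatty acid synthesis and cholesterol export had medians near the 0.028 of all unmarked genes, while that of cholesterol synthesis was lower, at -0.047. In fatty acid synthesis and desaturation 2 of 8 unmarked genes lay above 0 on both arrays, 0 below, and the median was 0.064. Elovl5, an elongase of polyunsaturated fatty acids, was at 0.23 and 0.22. The desaturases that make such fatty acids gave 0.11 and -0.34 for Fads1 and -0.010 and 0.0084 for Fads2, the first with its arrays on opposite sides. Scd2, a stearoyl-CoA desaturase, was among the genes lower at 1.3-fold at -0.41 and -0.54, but its probe is marked. Cholesterol synthesis leaned the other way on array 2. The median of its 13 unmarked genes was 0.053 on array 1 and -0.088 on array 2, so its side of 0 depends on the array. Sc5d, a late sterol desaturase, was the lowest at -0.21 and -0.24, and Fdps, which makes farnesyl diphosphate, stood at -0.083 and -0.088. Only 1 of the 13 lay above 0 on both arrays (7.69%, against 27.8% of all unmarked genes). Below on both lay 3 (23.1%, against 14.3%). In cholesterol export, 2 of 10 unmarked genes lay on each side on both arrays, and Apoe, which carries lipids out of cells, was at -0.35 and -0.088.

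Star and Asip were called higher while most measured genes of their lists were near 0. Star, which carries cholesterol to the inner mitochondrial membrane for steroid synthesis, stood at 0.98 and 0.70, a mean of 0.84 ± 0.14 or 1.79-fold. Cyp11a1, the enzyme that Star supplies, was at 0.074 and -0.039. Dhrs3, which reduces retinal to retinol, was the second of the list at 0.48 and 0.46 with almost equal arrays, while the retinoic acid synthase Aldh1a2 was at 0.10 and 0.18 and the retinoic acid hydroxylase Cyp26b1 at 0.075 and -0.024. Of 15 unmarked genes of steroid and retinoid metabolism 5 lay above 0 on both arrays (33.3%, against 27.8% of all unmarked genes). The median was 0.017. Asip, the agouti protein that blocks melanocortin receptors and in the mouse regulates coat colour, stood at 0.83 and 0.59, a mean of 1.64-fold. On array 2 it lay just above the threshold of 0.585. Its attractin co-receptor Atrn was at 0.016 and 0.14 and Pomc, the precursor of the melanocortins, at 0.0098 and -0.020. Npy and Pnoc, precursors of neuropeptides, were far from 0 on 1 array alone, at 1.02 and -0.23 and 0.031 and -0.90.

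Other genes higher at 1.3-fold have no list of their own here. Cyp4b1, a cytochrome of the family that hydroxylates fatty acid chains, stood at 0.95 and 0.43. Zp2, a protein of the egg coat, was at 0.51 and 1.22, with a mean above that of Star but array 1 under 1.5-fold. Rpl37l1, a ribosomal protein gene whose probe may also bind close copies, was at 0.47 and 0.54.

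Antioxidant genes lay above control on both arrays more often than genes at large. Gstp1, a glutathione transferase, stood at 0.77 and 0.51 and missed 1.5-fold on array 2 alone. Nqo1, a quinone reductase and a standard target of the factor NRF2, was at 0.34 and 0.86, under 1.3-fold on array 1. Gsta3, another glutathione transferase, was at 0.51 and 0.34, and the mitochondrial peroxiredoxin Prdx3 at 0.40 and 0.10. Catalase, Cat, a peroxisomal enzyme, gave 0.19 and 0.69 with a marked probe. Other NRF2 targets were nearer to 0 or below it: Gclm was at 0.10 ± 0.052, Txnrd1 at -0.065 ± 0.22 and the cystine carrier Slc7a11 at -0.29 and -0.26, below 0 on both arrays. Of 23 unmarked members 12 (52.2%, against 27.8%) lay above 0 on both arrays and 2 below, with a median of 0.082.

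Of the 11 lower genes without a marked probe 3 belong to the list of macrophages and other leukocytes. That list holds 20 of the 6096 unmarked genes, or 0.328%. Its members were chosen with earlier results of these data known, so this count is no test of an excess. Mmp12, the macrophage elastase, stood at -1.06 and -0.63, a mean of -0.84 ± 0.21 or 0.557-fold. Its 2 probes gave -1.06 and -0.80 on arrays 1 and 2, and -1.06 and -0.46, so only the first met the rule alone. Ceacam4, of the carcinoembryonic antigen family of cell adhesion proteins, stood at -0.88 and -0.75, or 0.568-fold. Lyz2, the lysozyme of macrophages, was at -1.13 and -0.42 and met 1.3-fold. Its 2 probes gave -0.93 and -0.51 on arrays 1 and 2, and -1.34 and -0.32, so only the first met 1.3-fold alone. General markers of these cells were near 0. Cd68 was at -0.052 and 0.18, Mrc1 at 0.10 and 0.055, Cd163 at 0.090 and 0.041, Adgre1 at -0.0045 and 0.14 and the pan-leukocyte gene Ptprc at 0.11 and -0.019. The monocyte receptor Cd14 at -0.29 and -0.11 and the complement gene C1qb at -0.35 and -0.066 lay below 0 on both arrays. Tyrobp, an adaptor of myeloid receptors, was lower at 1.3-fold but is marked, at -1.76 and -0.40. Over the 20 unmarked genes of the list 6 lay below 0 on both arrays and 5 above, and the median was 0.029, level with the 0.028 of all unmarked genes.

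Among signals that call or activate leukocytes 1 gene was called lower and none higher. Cxcl12, a chemokine that stromal cells release, stood at -0.40 and -0.84 and was called at 1.3-fold. Cxcl1, which attracts neutrophils, was at -0.23 and -0.22 and the cytokine Il6 at -0.33 and -0.31, each below 0 on both arrays. Ccl2, which attracts monocytes, was at -0.43 and -0.22, but its value on array 1 is the repeated one. Il1b was low on array 1 alone, at -0.86 and -0.016. Vcam1, an adhesion molecule, ran the other way at 0.60 and 0.051. Of 22 unmarked cytokine and chemokine genes 7 (31.8%, against 14.3% of all unmarked genes) lay below 0 on both arrays and 4 above, with a median of -0.041, or 6 of 21 below and a median of -0.026 without Ccl2. Other genes lower at 1.3-fold belong to no list here: Il1rl1, the receptor of interleukin 33, stood at -0.45 and -0.49, Rarres2, the precursor of the chemoattractant chemerin, at -0.53 and -0.40, and C1s, a protease that starts the complement cascade, at -0.57 and -0.41. In the eicosanoid list, where DHA competes with arachidonic acid, the median was 0.028, with 2 of 15 unmarked genes above 0 on both arrays and 3 below. The phospholipase Pla2g4a was at 0.25 and -0.027 and the epoxygenase Cyp2j4 at -0.20 and -0.25.

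Secreted or cell-surface modulators of growth factors held the other 2 genes called lower at 1.5-fold. Grem1, which traps bone morphogenetic proteins outside the cell, stood at -0.66 and -0.71, a mean of -0.69 ± 0.026 or 0.621-fold. Gpc3, a proteoglycan on the cell surface that binds Wnt and hedgehog proteins, stood at -0.59 and -0.79, or 0.619-fold. Further members lay below 0 on both arrays. Igfbp3, which binds insulin-like growth factors, was at -0.28 and -0.66, Ccn3, a matrix protein, at -0.55 and -0.21, the glypican Gpc4 at -0.56 and -0.14 and the ligand Bmp4 at -0.11 and -0.34. Of 23 unmarked genes 9 (39.1%, against 14.3% of all unmarked genes) lay below 0 on both arrays and 1 above. This list was chosen with earlier results of these data known and holds Grem1 and Gpc3, so the count is no test of an excess. The median of -0.11 is uneven, at -0.33 on array 1 and -0.033 on array 2. Several members carry that gap, among them Tgfb3, a ligand of the transforming growth factor family, at -0.52 and 0.22 and the proteoglycan Sdc4 at -0.79 and 0.30. The connective tissue growth factor Ccn2, at -0.43 and 0.56, has the repeated value on array 1, and without it the medians of the list were -0.30 and -0.041. Tnfrsf11b, the decoy receptor osteoprotegerin, and Dpep1, a membrane dipeptidase, are outside the list. They stood at -0.62 and -0.41 for Tnfrsf11b and at -0.84 and -0.49 for Dpep1.

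The matrix itself gave no settled direction. The median of 16 unmarked fibroblast and matrix genes was -0.20 on array 1 and 0.12 on array 2. Bgn, Fn1 and Col1a2, a proteoglycan, fibronectin and a collagen, share the repeated value of -0.43 on array 1 and stood between 1.49 and 1.86 on array 2, so their means join a repeated value with a high one. Without them the medians of the other 13 genes were -0.094 and 0.027. Sparc, a collagen-binding protein, was split at -0.37 and 0.39. Fmod, which shapes collagen fibrils, was below 0 on both arrays at -0.75 and -0.30, and Col3a1 was at -0.036 and -0.15. Tagln, a smooth muscle gene, also has the repeated value, at -0.43 and 1.64, and the other 8 unmarked genes of that list had a smaller gap, such as Myl9 at 0.029 and 0.58 and Cnn1 at -0.40 and -0.10. In the endothelial list Kdr, a receptor of vascular growth factors, was at 0.22 and 0.15 and Edn1, endothelin, at -0.75 and -0.085. Of matrix proteases outside the macrophage list, Mmp2 was at -0.29 and 0.14 and Mmp3 at 0.041 and 0.065.

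Genes of the contractile cell were mostly near 0. Of 13 unmarked sarcomere genes 4 lay above 0 on both arrays (30.8%, against 27.8% of all unmarked genes). Below on both lay 3 (23.1%, against 14.3%), and the median was 0.010. Myh6, the fast cardiac myosin, was at 0.16 and 0.13, Tnnt2, cardiac troponin T, at 0.059 and 0.24 and titin, Ttn, at 0.072 and 0.00020. The lowest were Myl7, the atrial regulatory light chain, at -0.51 and -0.25 and Csrp3, a stretch sensor of the Z-disc, at -0.55 and -0.21. Sln, which inhibits the calcium pump in atria, was also below 0 on both arrays at -0.17 and -0.56. Nppa, the atrial natriuretic peptide, was at -0.31 and 0.038. In its list of fetal and growth genes 6 of 16 unmarked members (37.5%) lay above 0 on both arrays and 1 (6.25%) below. Within calcium handling the ryanodine receptor Ryr2 was at -0.0072 ± 0.070, phospholamban, Pln, at -0.048 ± 0.10 and the sodium-calcium exchanger Slc8a1 at 0.10 ± 0.076. The calcium pump Atp2a2 has a marked probe and is left out. The channel list had the tightest spread of means of the larger lists: those of its 24 unmarked genes lay between -0.086 and 0.18. Kcnj8, a potassium channel gated by ATP, was at 0.24 and 0.12. On opposite sides of the arrays at 1.3-fold lay 1 of the 24, which a mean does not show.

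Genes that respond fast to stimuli sat on the low side. The median of 19 unmarked immediate early genes was -0.13, at -0.032 on array 1 and -0.11 on array 2, and this is the lowest median of means among the 30 lists. The growth factor list came close to it, at -0.13, once the repeated value was left out. Of the 19 immediate early genes 7 (36.8%, against 14.3% of all unmarked genes) lay below 0 on both arrays and 1 above. Egr1, a zinc finger factor induced by growth stimuli, stood at -0.25 and -0.36, Ier3 at -0.41 and -0.27 and Jun at -0.18 and -0.17. Junb was low on array 1 alone at -0.84 and 0.082. Nr4a3, an orphan receptor of the same kind, was called lower at 1.3-fold but is marked, at -0.83 and -0.51. Dusp6, a phosphatase that brakes the MAP kinase ERK, was called lower through 1 marked probe at -3.17 and -0.39, while its unmarked probe read 0.41 and -0.41. Among stress genes Atf3 at -0.75 and -0.37 and Hspa1a, the inducible heat shock protein 70, at -0.84 and -0.29 were low on both arrays, while the median of their list of 20 unmarked genes was 0.0028.

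Other energy and growth genes showed small values. Among 31 unmarked genes of the citrate cycle and respiratory chain 9 lay above 0 on both arrays and 2 below. The share above was 29.0%, near the 27.8% of all unmarked genes, and the median was 0.064. Suclg1, a subunit of succinyl-CoA synthetase, was the highest at 0.52 and 0.29, and citrate synthase, Cs, was at 0.18 and 0.14. Glycolysis had a median of 0.085, with 7 of 22 unmarked genes (31.8%, against 27.8%) above 0 on both arrays. Pgam1, a phosphoglycerate mutase, was at 0.45 and 0.20, whereas Ldha, lactate dehydrogenase, was split at -0.55 and 0.40. The cell cycle list had a median of 0.032. In it Mcm5, a subunit of the replicative helicase, was the lowest at -0.25 and -0.58 and the proliferation marker Mki67 was at 0.14 and 0.0092. The means of 21 unmarked apoptosis genes lay between -0.18 and 0.19, and those of 4 red blood cell genes between -0.0045 and 0.054.

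**Figure D5:**
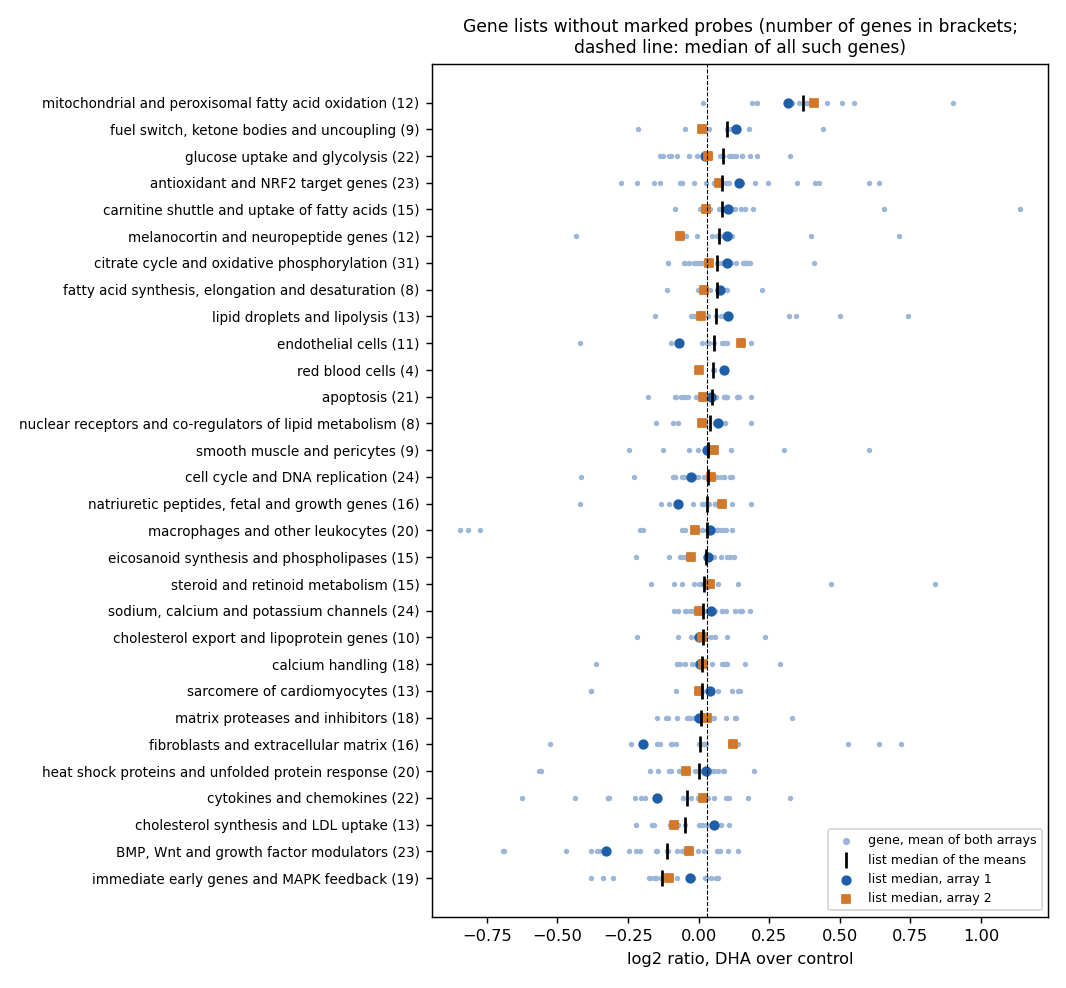
Unmarked members of 30 gene lists: each pale dot is the mean of both arrays for 1 gene, black ticks are list medians of these means, blue circles and orange squares are list medians on array 1 and array 2, and the dashed line is the median of all unmarked genes (0.028). The oxidation list stands apart at 0.37 with both arrays close together, while the medians of fibroblast, endothelial and growth factor lists differ between the arrays.

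The genes on opposite sides at 1.5-fold were Phlda3 at -2.55 and 0.59, Gsta1 at -1.20 and 0.64, Rps16 at -0.75 and 0.73, Rcn3 at -0.79 and 0.66 and Pabpc4 at -0.68 and 0.67. All 5 were low on array 1 and high on array 2, and all have a marked probe, so an effect of the dye and the fault of array 1 cannot be told apart. The marked probe of Rps16 read -1.56 and 1.63 and its unmarked probe 0.065 and -0.16. Genes with 2 unmarked probes give a second view of precision. Over 788 such genes the means of the probes differed by 0.076 at the median and by 0.27 at the 95th percentile, with Pearson's r of 0.40 across genes.

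Features without a named gene held 5 of the 13 features at 1.5-fold on both arrays in the same direction, namely 8 higher and 5 lower, a share like the 37.8% of measured features without a name. Of these, 4 were higher and unmarked and 1 was lower and marked. Over all features, named or not, 15 lay on opposite sides of the arrays at 1.5-fold, beside the 13 in the same direction. Feature 12385 was the highest of all at 1.44 and 1.64, or 2.91-fold, above Cpt1b. Feature 21876 followed at 0.95 and 1.41, or 2.27-fold. The annotation used here lists no gene for them.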

How the data were processed

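RNA of DHA-supplemented and control cells was compared directly on 2 Agilent rat oligo arrays with exchanged dyes, per the labels. The deposited values are 1 ratio per feature on a log scale, read here as log2; the labels give no scanner software, background correction or dye normalization. The table's 2 columns of other samples were not used. The ratios carry no signal or spot quality, so dim and saturated spots could not be left out, and precision is limited by the number of arrays.

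Each array was centred on the median of its 20500 measured features, and both were read as DHA over control and averaged. Of these features 12750 had 1 gene symbol in the platform annotation, 5 had several and 7745 were unlisted. Symbols were updated through the RefSeq gene table of the GRCr8 build for 12720 features, and 30 kept an older symbol. A gene with more than 1 probe, as 2266 had, got their mean. The grid of 215 columns and 105 rows was inferred from feature numbers, and the first 66 columns were marked.

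A gene was called at 1.5-fold on both arrays in 1 direction, with 1.3-fold as a lower threshold. No test was run, since both arrays count as 1 RNA sample. Named are all called genes, the 5 on opposite sides of the arrays at 1.5-fold, and members of 30 gene lists (711 measured genes). The members and lists were chosen with earlier results of these data known. Other scalings, readings, thresholds and probe rules were tried. Python 3.11.15, numpy 2.4.6, pandas 2.3.3 and matplotlib 3.10.9 were used.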

Additional observations from a re-analysis of the deposited data

How the results depend on the processing

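The reading and the scale matter most, and counts are given as higher and lower beside the 4 and 4 reported. Read as Cy5 over Cy3 there were 0 and 5 genes, none shared with those reported; Gpc3 then stood at 0.098 and Grem1 at 0.026, both turned, and the oxidation list's median over all members was -0.15 in place of 0.20. Read as log base 10 there were 136 and 343 genes. At 1.3-fold there were 14 and 23, at 2-fold 0 and 0, and with 1.5-fold asked of the mean alone 27 and 463. Array 1 or array 2 alone gave 49 to 76 higher and 7 to 919 lower genes; the 919 come from array 1, where 871 have a marked probe. Quantile normalization gave 3 and 43, of which Mmp12 is the only lower gene shared; the cause was not tested. Scaling to equal spread gave 4 and 2, without Gpc3 and Grem1. Asip was lost with values as deposited and with centring outside the marked columns (3 and 4 each), Gpc3 with a local median taken away (4 and 3), and Mmp12 when each probe had to meet the rule (4 and 3). Counting any probe, unmarked genes alone, or leaving out the repeated value (chosen after seeing the data) gave 4 and 4. Of the 30 list medians 14 changed side of 0 when read as Cy5 over Cy3, 11 without marked genes and 1 to 9 under the other 6 scalings and exclusions; with array 1 alone 9 did and with array 2 alone 12. No paired analysis was possible because each ratio already compares DHA with control cells within an array, so no fit with and without that pairing can be set apart and no test was run.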
